A study of Mus musculus with 6 samples.

Results

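The wells described here are kidney mesenchymal cells that carry RNA of 4 pericyte genes, Casq2, Ephx3, Higd1b and Lamc3. They were chosen by their own RNA: a well sorted in the mesenchyme gate counted as a member when it had at least 1000 genes and 20000 gene reads, at least 300 CPM (gene reads scaled to a common total per well) summed over the 4 genes, under 300 CPM of the collagen gene Col1a1 and under 200 CPM of the renin gene Ren1. This gave 194 member wells among 1106 kept mesenchyme-gate wells and 2235 kept wells in all. Single cells from the kidneys of mice were sorted after enzymatic digestion into 6 plates and sequenced by Smart-seq2, a method that reads whole transcripts of 1 cell per well without molecular identifiers. Each plate held cells of 3 mice, 1 healthy, 1 at day 2 and 1 at day 10 of unilateral ureteric obstruction (UUO), in which the ureter of 1 kidney is tied and the kidney behind it becomes inflamed and scarred. The strain, age and sex of the mice, any reporter allele and the antibodies behind the mesenchyme and endothelia gates are not given in the sources used here. The plate layout gives each well a condition and a number from 1 to 4. Reads of member wells were summed per condition and number, and each of the 12 sums was treated as 1 mouse, which the labels do not state. P-values therefore measure the spread between these sums.

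Pericytes sit on capillaries inside the basement membrane, share contractile and signalling genes with vascular smooth muscle, and in the kidney are one of the sources proposed for scar-forming cells after obstruction. Casq2 encodes calsequestrin 2, which binds calcium inside the sarcoplasmic reticulum, and Ephx3 encodes an epoxide hydrolase that cleaves fatty-acid epoxides. Higd1b belongs to a family of mitochondrial proteins linked to low oxygen, and Lamc3 encodes the gamma-3 chain of laminin, a basement membrane protein.

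In each condition the members came from all 4 numbers. Healthy kidneys gave 80 members of 364 kept mesenchyme-gate wells (22.0%, exact binomial 95% interval 17.8 to 26.6), by number 19, 16, 17 and 28. At day 2 there were 80 of 366 (21.9%, 17.7 to 26.4), by number 29, 9, 13 and 29. At day 10 there were 34 of 376 (9.04%, 6.34 to 12.4), by number 8, 4, 7 and 15. These intervals cover counting error only. The shares are a description, because the rule read the same RNA and because the Col1a1 and Ren1 limits removed more wells with obstruction: Col1a1 was at or over its limit in 14 healthy, 22 day 2 and 81 day 10 wells, and Ren1 in 19, 41 and 82. Of the 90, 97 and 55 wells that met the marker sum, 5, 3 and 7 were at or over the Col1a1 limit and 6, 15 and 14 at or over the Ren1 limit. The sum for day 10 number 2 rests on 4 wells and was left out of every model fit, so day 10 has n = 3 in each fit and n = 4 where sums are listed.

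Plates held 116992491 to 142898570 gene reads, and member wells had a median of 379465.5 reads and 3259 genes. Member sums ranged from 1404036 to 11196446 reads. No well repeated the counts of another, and no empty control well of the 12 met the marker sum with enough reads. In the endothelia gate 10 of 1129 kept wells met the marker sum (0.886%, exact binomial 95% interval 0.426 to 1.62). Other mesenchyme wells, used below for comparison, are the 661 kept mesenchyme-gate wells with a marker sum under 300 CPM that met the same Col1a1 and Ren1 limits.

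Few members carried all 4 marker genes. Ephx3 had a read in 153 of 194 members (78.9%), Lamc3 in 126 (64.9%), Higd1b in 97 (50%) and Casq2 in 74 (38.1%). In the endothelia gate, whose cells should lack these genes and whose median depth was 397546 reads, the shares were 4.34%, 2.66%, 1.15% and 2.30%. Of the members, 39 had reads of 1 marker gene, 76 of 2, 57 of 3 and 22 of all 4. Ephx3 made the largest part of the marker sum in 115 members, Casq2 in 41, Lamc3 in 25 and Higd1b in 13, on a CPM scale that is not corrected for gene length. Across the 194 members the 4 genes hardly followed each other, with Spearman's rho from -0.09 to 0.12 between pairs of wells' CPM; these wells share plates and the rule itself, so the values are a description. Marker sums had a median of 1449.5 CPM. The 23 members between 300 and 400 CPM, the lowest at 301.17 and 310.64, stood close to 18 other wells between 200 and 300 CPM, the highest at 298.67 and 290.62.

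**Figure D1:**
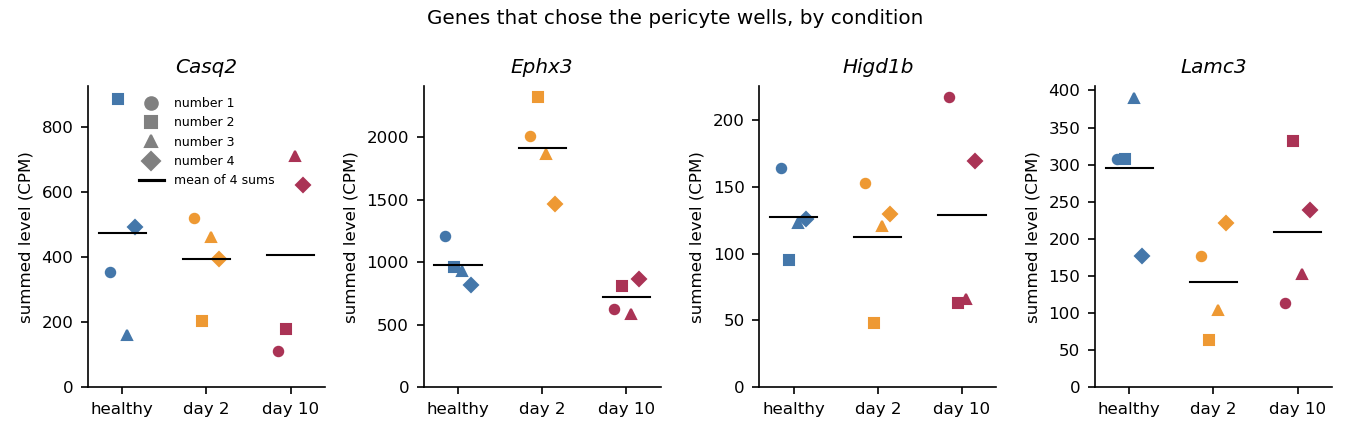
CPM of the 4 genes of the selection rule in the sums of member wells, by condition, with 1 point per number and a bar at the mean. The Ephx3 points of day 2 lie between 1461 and 2319 CPM, above all healthy and day 10 points, while Casq2 points scatter in every condition.

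The rule used these 4 genes, so their levels over the conditions are given without a test. Ephx3 sums were 1212, 960, 930 and 818 CPM in healthy kidneys, 2004, 2319, 1860 and 1461 at day 2, and 622, 808, 582 and 864 at day 10. Every day 2 sum lay above every healthy and day 10 sum. Casq2 sums were 354, 888, 160 and 494 CPM in healthy kidneys, 522, 204, 463 and 394 at day 2, and 111, 178, 713 and 622 at day 10, and the 3 ranges overlapped. For Lamc3 the sums were 307, 308, 390 and 177 CPM, then 178, 63.9, 104 and 222, then 114, 332, 152 and 240; the first 3 healthy sums exceeded every day 2 sum and the fourth did not. Higd1b gave 164, 95.4, 123 and 126 CPM, then 153, 47.8, 121 and 129, then 217, 62.7, 66.3 and 169. The plot of the rule genes shows the same values, with the highest level at day 2 for Ephx3 and no order of conditions for Casq2 or Higd1b.

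Casq2 lies on mouse chromosome 3 and Ephx3 on chromosome 17, where Notch3, the receptor that pericytes and smooth muscle use to receive Notch signals from endothelium, lies 16873 bases away with Gm41568 alone starting between them. The 250 bases before the listed start site are shown for the genes that name these cells, taken from RefSeq (GRCm38.p6), Casq2 at chr3:102086165-102086414 on the plus strand and Ephx3 at chr17:32189471-32189720 on the minus strand, each 5′ to 3′. Neither holds TGGGAA on either strand, the core letters read by the partner protein of Notch; 21.6% of 32536 promoter windows of this length do.
Casq2: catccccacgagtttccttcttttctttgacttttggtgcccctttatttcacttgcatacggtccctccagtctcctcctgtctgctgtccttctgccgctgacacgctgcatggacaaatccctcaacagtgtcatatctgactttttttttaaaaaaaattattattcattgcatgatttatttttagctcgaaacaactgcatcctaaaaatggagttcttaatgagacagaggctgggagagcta
Ephx3: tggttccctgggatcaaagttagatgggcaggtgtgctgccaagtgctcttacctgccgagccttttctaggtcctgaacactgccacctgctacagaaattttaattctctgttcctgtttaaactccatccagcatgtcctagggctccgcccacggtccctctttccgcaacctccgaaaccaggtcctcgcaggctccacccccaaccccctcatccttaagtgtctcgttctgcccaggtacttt

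The label of pericytes was checked against 36 further pericyte genes measured in the files, with no test, since the wells were chosen on the same RNA. Reads of 24 of them were found in at least 50% of the members. The ratio of mean CPM in members to mean CPM in all other mesenchyme-gate wells was at least 2 for 14 and at most 0.5 for 3. Its median was 1.84 against 0.988 over all genes. Summed over the 36 genes, members held medians of 23064, 22638 and 22755 CPM in health, at day 2 and at day 10. The other mesenchyme wells held 16498, 14402 and 13712, so these genes were not confined to members. Rgs5, a regulator of G-protein signalling that marks pericytes, had reads in 99.5% of members at a mean of 5521 CPM. Pdgfrb, the receptor that recruits pericytes, had a mean of 1715 CPM, and Notch3 a mean of 1270 CPM and a ratio of 2.75. Ratios of Rgs5 and Pdgfrb are not given here, so their levels do not set members apart from other wells. The ratio was 15.2 for Vtn, which encodes vitronectin, 8.41 for the metalloreductase gene Steap4 and 3.99 for Abcc9, the regulatory subunit of the vascular potassium channel. Reads of these 3 genes were found in 19.1%, 20.6% and 25.8% of members, so the median of each was 0 CPM. Cox4i2, an oxygen-sensitive subunit of cytochrome oxidase, had reads in 87.6% of members and a ratio of 2.51. The angiotensin receptor gene Agtr1a, which is on the mesangial list used below and not among the 36, had a mean of 1184 CPM and a ratio of 2.74.

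Among genes with a mean of at least 50 CPM and a read in at least 50% of members, the largest ratios beyond the rule genes belonged to Apold1 (5.67), Cmip (5.45), Ndufa4l2 (4.84), AW549542 (4.72), Tesc (4.36), Egflam (3.95), Cd24a (3.84), Tusc5 (3.67), Bcr (3.41), Ano1 (3.40) and Cygb (3.40). Ndufa4l2 encodes a mitochondrial protein induced by low oxygen, Ano1 a calcium-gated chloride channel that promotes contraction, Egflam the matrix protein pikachurin and Cygb cytoglobin, a haem protein of fibroblasts and pericytes. Ednrb, an endothelin receptor, had a ratio of 3.32. Under the same limits the genes with the lowest ratios included Spp1, osteopontin (0.102), Mgp, an inhibitor of calcification (0.162), Clu, clusterin (0.199), and Rgs2 (0.276). The ratio of Spp1 was 1.10 in healthy kidneys, 0.108 at day 2 and 0.0023 at day 10. The healthy member mean of 930 CPM rests almost wholly on 4 wells with Cdh16 RNA, described below, which held 2251 to 35347 CPM. The median of Spp1 over all members was 9.62 CPM, so the healthy ratio does not describe most members. Of the 1731 genes within these limits, 75 had a ratio of at least 2 and 11 a ratio of at most 0.5.

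**Figure D2:**
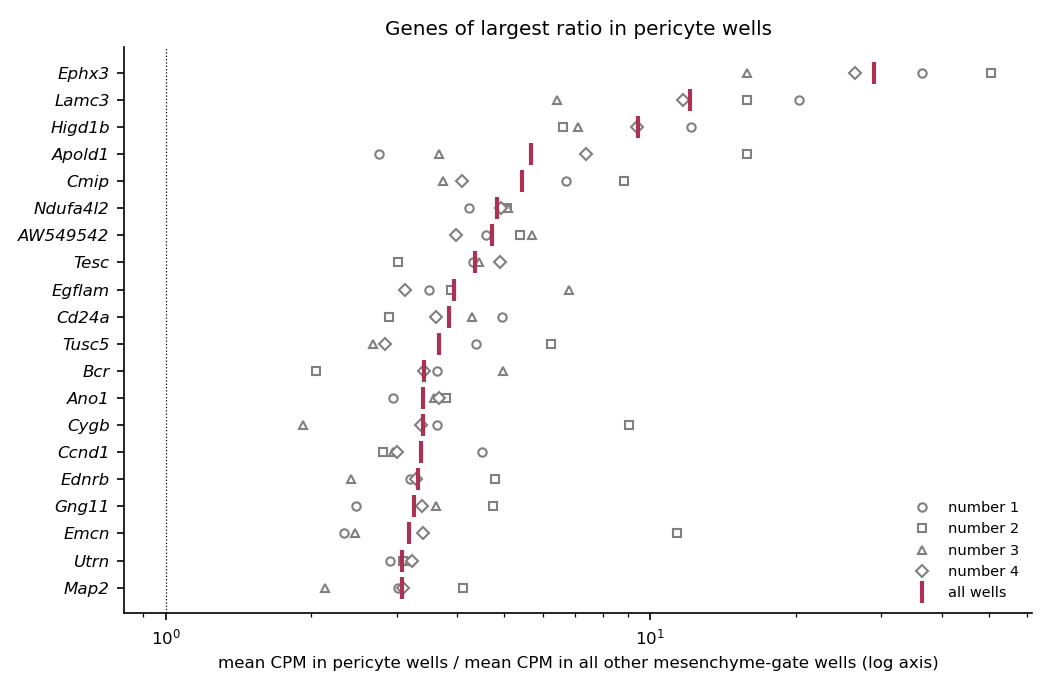
Mean CPM in members divided by mean CPM in all other kept mesenchyme-gate wells for the 20 genes of largest ratio among those with a mean of at least 50 CPM and a read in at least 50% of members, on a log axis, with the ratio within each number as open symbols. Ephx3, Lamc3 and Higd1b, which the rule used, lead, and Apold1 at 5.67 is the first gene shown that the rule did not use.

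Among the calcium store genes that act with calsequestrin, the calcium pump gene Atp2a3 had a ratio of 2.86. Of the 34 genes on the list 7 had a ratio of at least 2 and 5 at most 0.5, with a median of 1.11 against 0.988 over all genes. Of 29 epoxide and eicosanoid genes 3 had a ratio of at least 2, and 15 had a ratio of at most 0.5. The 22 oxidative phosphorylation genes, all read in at least 50% of members, had a median ratio of 0.994 and none past either limit. Basement membrane genes had a median ratio of 0.714 over 30 genes, with 14 read in at least 50% of members.

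The 23 contractile genes had a median ratio of 0.917 over all conditions pooled, but single genes and conditions differed. Smooth muscle actin, Acta2, had a mean of 17454 CPM in members (ratio 0.909), Myl9, a regulatory light chain of myosin, 8781 CPM, and Myh11, a myosin heavy chain of smooth muscle, 3885 CPM. Cnn1, calponin 1, had a ratio of 0.245 and Synpo2 0.483, while Des, the filament protein desmin, had 2.74. Summed over the list, healthy members held a median of 49673 CPM against 79656 in the other mesenchyme wells defined above, and day 10 members 59973 against 52678. Of 13 mesangial genes 5 had a ratio of at most 0.5, Gata3 (0.22) and Itga8 (0.25) among them, and 2 at least 2. Summed over this list, members held medians of 4750.6, 4321.5 and 5174.5 CPM in health, at day 2 and at day 10. The other mesenchyme wells held 3374.5, 4068.1 and 4989.9. The fibroblast list had a median ratio of 0.114 (12 of 14 genes under 0.5) against wells that include those over the Col1a1 limit. In the same order, its sums had medians of 1440, 1123 and 1154 CPM in members. They were 1455, 1096 and 1181.5 in the other mesenchyme wells, held to the same limit. The leukocyte list (0.085, 9 of 11) and the podocyte and parietal list (0.295, 7 of 10) had low ratios. The endothelial list had a median ratio of 0.479 over 12 genes, with 6 at most 0.5 and 2 at least 2. The higher ones included Emcn, an endothelial sialomucin, with a mean of 449 CPM and a ratio of 3.18, and Ehd3, with 192 CPM and 2.02. The adhesion gene Esam had a mean of 682 CPM and a ratio of 1.94, with reads in 87.1% of members. Pecam1, which marks all endothelium, had a mean of 2.94 CPM. Leaving out wells with endothelial RNA kept 191 members when Emcn was not counted and 109 when it was.

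Of the 194 members, 7 had under 100 CPM of Rgs5, 5 healthy and 2 at day 2, and in all 7 Lamc3 made the largest part of the marker sum. In 4 of them, 3 from healthy number 3 and 1 from healthy number 4, the tubule cadherin gene Cdh16 lay between 1066 and 3918 CPM, with Spp1 from 2251 to 35347 CPM and Ncam1 from 1159 to 1895 CPM. The 4 wells with Cdh16 are members by the rule only. Of the others, 1 from day 2 number 4 had 2200 CPM of Pdgfrb, 6690 of Acta2 and 2144 of Myh11. Pdgfrb was 1774 CPM in the one from healthy number 4 and 27.0 CPM in the remaining one. Results are given below without all 7 wells where they bear on a call.

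Within the members contractile genes followed each other. Over the 194 wells Acta2 followed Myl9 (Spearman's rho 0.80), Tpm2 (0.76) and Mylk (0.71), and ran against Agtr1a (-0.47), Lamb1 (-0.46) and Abcc9 (-0.46). Among the rule genes it ran against Lamc3 (-0.36) and Ephx3 (-0.25). Depth did not follow it (rho -0.047). Ephx3 was most like Ednrb (0.53), Ptp4a3 (0.39) and Fabp4 (0.36) over 5874 genes read in at least 20% of members, and had a rho of 0.31 with its neighbour Notch3. Casq2 was most like Nrip2 (0.41), Rgs7bp (0.35) and the Notch feedback gene Nrarp (0.32). For Lamc3 the values were lower, led by Sptbn1 (0.29), Tcf21 (0.28) and Lamb1 (0.28), and for Higd1b Sept4 (0.35) and Gng11 (0.32) led. These are descriptions over wells that share plates, mice and the selection.

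**Figure D3:**
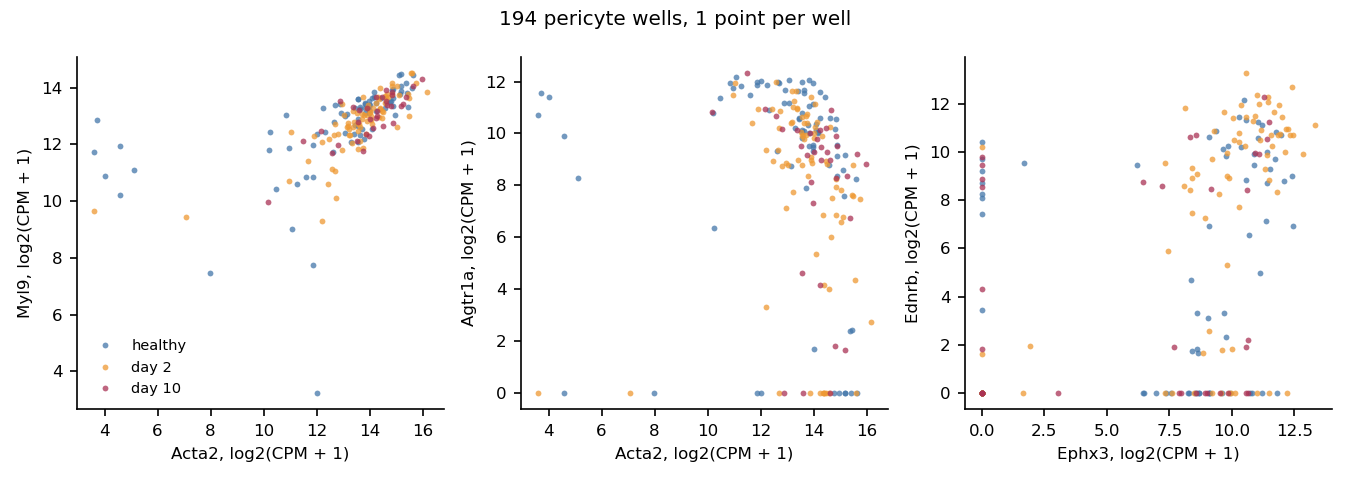
Levels in single member wells on log2(CPM + 1) axes, with 1 point per well coloured by condition, for Acta2 with Myl9, Acta2 with Agtr1a and Ephx3 with Ednrb. Wells with high Acta2 have high Myl9 (rho 0.80) and tend to have low Agtr1a (-0.47), and Ednrb follows Ephx3 (0.53).

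Obstruction was compared with health in the member sums with edgeR's quasi-likelihood test, with the number as a block, over 11379 genes. At day 2 no gene passed a Benjamini-Hochberg adjusted p of 0.05 (0.0% of genes), and 394 genes (3.46%) had an unadjusted p under 0.05. DESeq2 called 249 (2.19%) and limma on mean log2(CPM + 1) over wells called 19 (0.167%), all 19 higher, with 13 in both lists and all 13 higher at day 2: Crispld2, Emilin1, Ephx3, Ldha, Lrrc32, Osmr, Ptp4a3, Sncg, Sparcl1, Stat3, Synm, Tmem176a and Wwp2. Ephx3 is in the rule and its place there is no finding. A joint fit also held the other wells and so had 23 sums, an alternative for members chosen after seeing the data. The member sum and the other-well sum of a condition and number are presumed to come from the same mouse. This fit treated them as separate, with the number as its only block, so its p-values do not account for that sharing. In it edgeR called 21 of 14386 genes in members at day 2 (0.146%), 16 higher (0.111%) and 5 lower (0.0348%). Without number 1 this count was 0, without number 3 it was 2, without number 4 it was 4, and without number 2 it was 12. It was 2 without wells with tubule RNA and 14 without the 7 members with little Rgs5. Under the other settings run with edgeR it was 7 to 39, and DESeq2 on the joint fit called 976. Of the 21, 11 were also called with a marker sum of at least 600 CPM and 8 without wells with endothelial RNA when Emcn was counted. In the latter Ldha (edgeR adjusted p = 0.104), Stat3 (0.123), Sncg (0.133) and Tmem176a (0.0918) did not pass. Without wells with tubule RNA only Sparcl1 of the 21 was called, and Plat (0.0631), Il6st (0.0649), Ldha (0.0565), Stat3 (0.183) and Sncg (0.148) did not pass. Where a gene is said below to have risen or fallen in the joint fit, the call is that of the fit with all 23 sums. No gene was called by the test on members alone.

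Sparcl1, which encodes a secreted matrix protein of the SPARC family, had the smallest p at day 2. Its sums were 4119, 5181, 2785 and 4114 CPM in healthy kidneys, 9761, 7393, 9507 and 9054 at day 2, and 14118, 13196, 10888 and 9792 at day 10. Every obstructed sum lay above every healthy one. The log2 difference at day 2 was 1.15 ± 0.18 (SE; edgeR adjusted p = 0.386) and at day 10 1.57 ± 0.21 (adjusted p = 0.186). In the joint fit Sparcl1 rose in members at both times, by 1.15 ± 0.14 (edgeR adjusted p = 0.000781) and 1.55 ± 0.15 (adjusted p = 2.47e-05). It also rose in the other wells, by 0.80 ± 0.13 at day 2 (adjusted p = 0.0314) and 0.69 ± 0.13 at day 10 (adjusted p = 0.0371). The difference in response between the classes did not pass at either time (edgeR interaction, adjusted p = 0.917 and 0.1385). At day 2 the joint call for Sparcl1 was lost without number 1 (adjusted p = 0.0885), and at day 10 it held without each number (the highest adjusted p was 0.0297, without number 1).

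Plat, tissue plasminogen activator, was higher in every day 2 sum than in any healthy one. Its sums were 109, 109, 184 and 128 CPM in healthy kidneys, 940, 536, 1027 and 687 at day 2, and 112, 1542, 336 and 651 at day 10. The day 10 sums spread over the range of both other conditions. Ednrb sums were 237, 803, 127 and 661 CPM, then 1462, 2070, 898 and 1243, then 574, 95.4, 398 and 664, so that the day 2 sums stood above both other conditions. Plat differed by 2.62 ± 0.44 and Ednrb by 1.88 ± 0.33 on the log2 scale at day 2 (both edgeR adjusted p = 0.386). Both rose at day 2 in the joint fit (2.64, adjusted p = 0.00748, and 1.83, adjusted p = 0.0206).

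Genes of the interleukin 6 family pathway, which signals through the gp130 receptor Il6st and the transcription factor Stat3, had sums above the healthy range at day 2. Stat3 sums were 95.9, 302, 171 and 183 CPM in healthy kidneys, 425, 677, 582 and 643 at day 2, and 228, 687, 200 and 481 at day 10. Il6st sums were 96.4, 79.1, 47.3 and 151 CPM, then 273, 598, 366 and 320, then 463, 180, 425 and 269. Both genes were above the healthy range in every day 2 sum, and Il6st also in every day 10 sum. In the joint fit Il6st rose at day 2 by 2.09 ± 0.32 (edgeR adjusted p = 0.0116) and at day 10 by 2.12 ± 0.34 (adjusted p = 0.0104), and Stat3 at day 2 by 1.66 ± 0.28 (adjusted p = 0.0206). Stat3 also rose at day 2 in the other wells, by 1.65 ± 0.28 (adjusted p = 0.0314). Itih4, an acute-phase protein gene, was nearly silent in health, at 0.523, 17.8, 0.165 and 0.281 CPM, and reached 240, 50.3, 190 and 446 CPM at day 2 and 1032, 137, 240 and 129 at day 10. At least 100 CPM of Itih4 was found in 1 of 80 healthy members, 15 of 80 at day 2 and 7 of 34 at day 10, so few wells carried the sums. In the joint fit Itih4 rose in members by 6.68 at day 2 and 7.78 at day 10 (edgeR adjusted p = 0.0367 and 0.0164). It rose in the other wells by 6.49 and 6.11 (adjusted p = 0.0323 and 0.0201).

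Of the 21 acute-phase and gp130 genes tested in members, 0 passed edgeR's test in the fit on members alone, with 10 at an unadjusted p under 0.05 at each time. DESeq2 called 9 higher at day 2, and 4 higher and 2 lower at day 10; limma called 4 and 3, all higher. The sums did not overlap the healthy ones, all being higher, for 9 at day 2 (Itih4, Osmr, Il6st, Stat3, Bcl3, Cebpb, Timp1, Crispld2 and Rasl10b) and for 4 at day 10 (Itih4, Osmr, Il6st and Bcl3). Overlap at day 10 was counted here and below over the 3 fitted sums, without the 4-well sum of number 2. Over all genes the sums did not overlap, and were higher, for 1.92% at day 2 and 2.44% at day 10. The median log2 difference of the list was 1.97 at day 2 and 1.43 at day 10, against -0.03 and -0.25 over all genes. Parts of this list may have been chosen on these samples, so its direction is not independent evidence. In the joint fit 5 of 25 rose at day 2 and 3 of 25 at day 10, and 0 fell.
Summed over the list, members held a median of 2188 CPM in health, 4411 at day 2 and 4341 at day 10, and the other wells 3054, 10827 and 19998 CPM. The member sums ranged from 1127 to 8093 CPM in health, 3573 to 5140 at day 2 and 3617 to 5173 at day 10, and overlapped. The highest healthy sum was that of number 3, in which Spp1, a gene of this list, made 5257 CPM. That sum holds 3 of the members with Cdh16 RNA and little Rgs5, and list sums without them are not given here. The difference in response between the classes passed edgeR's test for 0 of 25 genes, with 2 at an unadjusted p under 0.05 at day 2 and 8 at day 10, where DESeq2 called 4 lower in members.

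Ldha, the lactate dehydrogenase of glycolysis, had sums of 295, 392, 259 and 263 CPM in health, 745, 816, 1158 and 609 at day 2, and 754, 474, 832 and 656 at day 10, all above the healthy range. It rose in the joint fit at day 2 by 1.41 ± 0.23 (edgeR adjusted p = 0.0198) and at day 10 by 1.27 ± 0.25 (adjusted p = 0.0358). Ldha also rose at day 2 in the other wells, by 1.24 ± 0.23 (adjusted p = 0.0409). Sncg, gamma-synuclein, went from 435, 537, 347 and 327 CPM to 783, 816, 1034 and 903 and then to 926, 1061, 1150 and 1017, again with no overlap. It rose by 1.06 (adjusted p = 0.0383) and 1.25 (adjusted p = 0.017). Tmem176a, a membrane protein gene chosen for mention after its values were seen, rose by 2.30 (adjusted p = 0.017) and 2.05 (adjusted p = 0.0256).

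**Figure D4:**
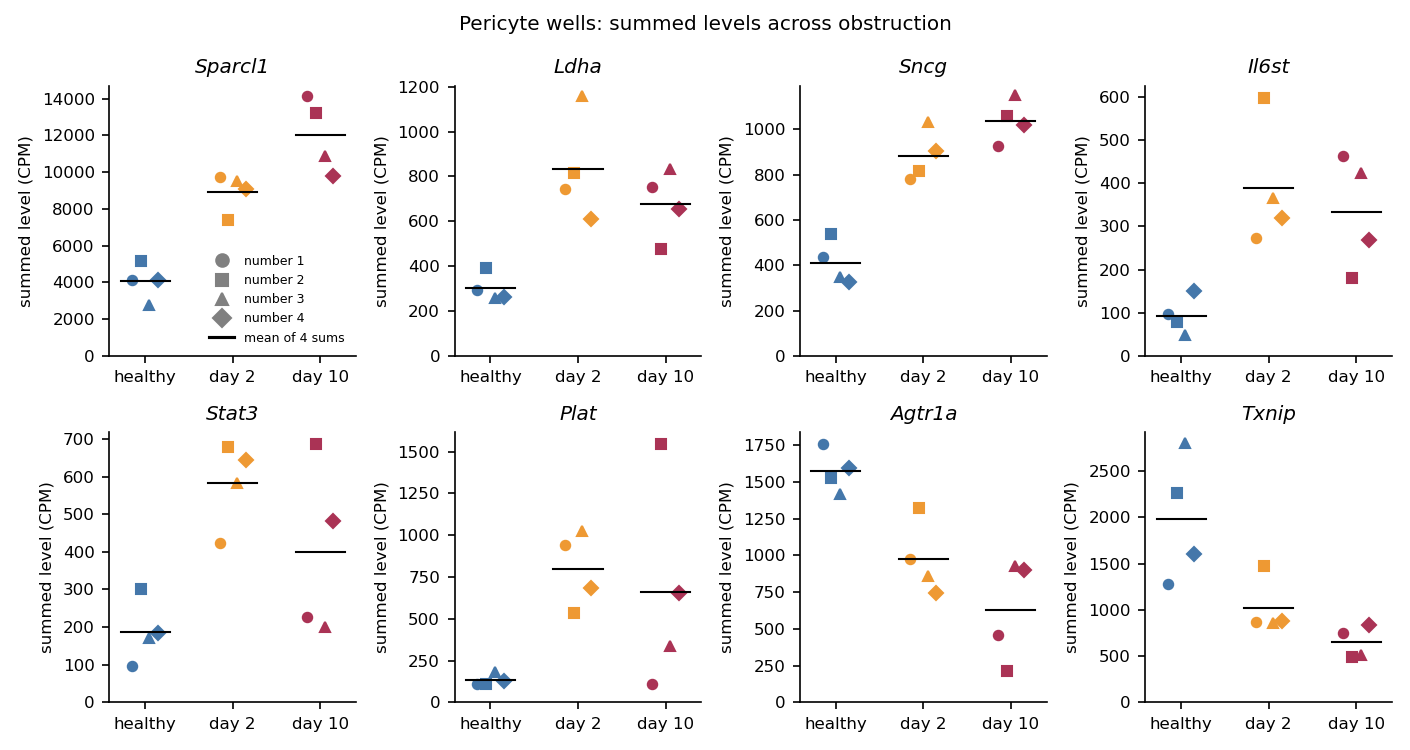
CPM in the sums of member wells for 8 genes named in the text, by condition, with 1 point per number and a bar at the mean. Sparcl1, Ldha and Sncg points at day 2 and day 10 all lie above the healthy points, and the Agtr1a points all lie below them.

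Among genes with lower values at day 2, Angptl2, a secreted angiopoietin-like protein gene, had sums of 456, 373, 417 and 290 CPM in health, 116, 133, 91.3 and 121 at day 2, and 230, 294, 365 and 199 at day 10. The difference at day 2 was -1.72 ± 0.31 (edgeR adjusted p = 0.386), with no overlap. Gstm1, a glutathione transferase, differed by -1.81 ± 0.40 (adjusted p = 0.811) and Rsrp1, a splicing-related gene, by -0.95 ± 0.20 (adjusted p = 0.697). Cdh16 (-5.56) and the neural adhesion gene Ncam1 (-9.42) were also among the 5 lowest p, and their healthy sums rest on the 4 members described above: Cdh16 sums were 1.70, 0.184, 489 and 84.4 CPM in health. Tubule markers summed to a median of 911 CPM in healthy, 297 in day 2 and 26.1 in day 10 members, and all 9 tested had negative differences at day 2; the part of carried-over tubule RNA in these 2 genes was not tested.

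At day 10 edgeR again called 0 of 11379 genes in members (0.0%), with 621 (5.46%) at an unadjusted p under 0.05. DESeq2 called 387 (3.4%) and limma 67 (0.589%), of which 28 were shared and 23 of those higher. The joint fit called 39 of 14386 genes (0.271%), 20 higher (0.139%) and 19 lower (0.132%). This count was 1 without number 1, the gene being Sparcl1, 17 without number 3 and 10 without wells with tubule RNA, and it was 44 without the 7 members with little Rgs5, 48 without number 4, 51 without number 2 and 101 with a marker sum of at least 600 CPM. Under the other settings run with edgeR it was 22 to 65, and DESeq2 on the joint fit called 1521. Many calls under these settings were of other genes. Of the 39, 5 were also called without number 3, 11 without number 4, 24 without number 2 and 15 at 600 CPM. The overlap was 7 without wells with tubule RNA, 7 without wells with endothelial RNA when Emcn was counted, and 35 without the 7 members with little Rgs5. Without wells with tubule RNA Ldha (edgeR adjusted p = 0.144), Il6st (0.0964), Sncg (0.0964), Tmem176a (0.0964) and Txnip (0.169) did not pass. Without wells with endothelial RNA Ldha (0.13), Sncg (0.113), Tmem176a (0.181) and Txnip (0.404) did not pass. At 600 CPM Ldha (edgeR adjusted p = 0.385) and Il6st (0.126) no longer passed, while Sparcl1, Sncg, Cdkn1a, Itih4, Txnip and Acta2 did. The comparison shares its healthy sums with day 2.

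The genes with the smallest p among those higher at day 10 were Sparcl1, Sncg, Cdkn1a, Ldha and Il6st. Cdkn1a, an inhibitor of the cell cycle, had sums of 148, 270, 135 and 112 CPM in health and 322, 788, 1222 and 623 at day 10, with no overlap. Its difference was 2.21 ± 0.40 (edgeR adjusted p = 0.336), and it rose in the joint fit by 2.02 ± 0.36 (adjusted p = 0.0221). Ccnd1, a cyclin of the cell cycle start, was lower, at 473, 286, 229 and 290 CPM in health and 144, 0, 124 and 147 at day 10 (log2 difference -1.19). Of 10 cell cycle genes tested at day 10, 0 passed edgeR's test on members alone, with 2 at an unadjusted p under 0.05, and 5 positive and 5 negative differences. DESeq2 called 1 higher and 1 lower, and limma 1 higher.

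Several genes fell at day 10 in the joint fit. Txnip, a regulator of thioredoxin and glucose uptake chosen after its values were seen, had sums of 1280, 2261, 2800 and 1601 CPM in health, 866, 1477, 860 and 874 at day 2, and 751, 494, 512 and 837 at day 10. Its log2 difference at day 10 was -1.40 ± 0.26 (edgeR adjusted p = 0.0256). Cyth3, an exchange factor of membrane traffic, had healthy sums of 186, 269, 101 and 186 CPM and day 10 sums of 15.2, 236, 18.3 and 30.4. The 4-well sum of number 2, not in the fit, is the one in the healthy range. Kap, a proximal tubule gene, had 53.3, 18.4, 170 and 244 CPM in health, 35.3, 7.22, 77.1 and 33.0 at day 2, and 0, 0, 1.31 and 1.17 at day 10. In the joint fit Kap also fell at day 10 in the other wells (-5.55, edgeR adjusted p = 0.00763). Kap, Cdh16 and Gpx3, all genes of tubule cells, were among the genes of smallest p of those lower at day 10 in the fit on members alone, beside the summed tubule markers above.

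Between day 10 and day 2, edgeR called 0 of 11379 genes (0.0%), with 397 (3.49%) at an unadjusted p under 0.05, DESeq2 218 (1.92%) and limma 4 (0.0352%). The fitted sums did not overlap for 2.16% of genes higher and 3.94% lower at day 10. The genes of smallest p that were higher at day 10 were Smoc2, Rsrp1, Smad5, Lpl and Exoc4. Smoc2, a matricellular gene linked to fibroblasts, had sums of 0.189, 0, 0 and 0 CPM at day 2 and 55.4, 0, 169 and 79.1 at day 10, carried by 5 of 34 wells with at least 100 CPM. Lpl, lipoprotein lipase, had 110, 143, 109 and 92.7 CPM at day 2 and 329, 207, 299 and 257 at day 10, with no overlap (log2 difference 1.55 ± 0.38, adjusted p = 1.0).

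The genes that define pericytes gave no edgeR call in the 3 comparisons on members alone, with 7 at an unadjusted p under 0.05 at day 2, 7 at day 10 and 3 between them. Against health, DESeq2 called 1 higher and 1 lower at day 2 and 3 lower at day 10, and limma 2 and 1 higher. Of 34 further pericyte genes tested, 15 had positive and 19 negative differences at day 2, and 13 and 21 at day 10, with medians of -0.10 and -0.21 against -0.03 and -0.25 over all genes. Rgs5 sums were 5056, 6757, 3010 and 6692 CPM in health, 5291, 4732, 4154 and 5688 at day 2, and 5348, 7310, 5282 and 6196 at day 10, and overlapped throughout. Cox4i2 was lower in every obstructed sum, at 313, 366, 309 and 306 CPM in health, 189, 189, 254 and 225 at day 2, and 160, 252, 189 and 227 at day 10. Genes whose fitted sums did not overlap and were lower made up 1.78% of all genes at day 2 and 4.67% at day 10. All 10 tested genes of the oxygen-responsive respiratory chain list had negative differences at day 2 and 7 of 10 at day 10, with medians of -0.28 and -0.10 against -0.03 and -0.25 over all genes. Of these 0 passed by edgeR, DESeq2 or limma, with 1 and 2 at an unadjusted p under 0.05. In the other wells 9 of 10 were negative at each time, and 1 of them fell at day 10 in the joint fit.

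Agtr1a, through which angiotensin II contracts vessels, had sums of 1759, 1527, 1418 and 1596 CPM in health, 978, 1323, 859 and 746 at day 2, and 461, 215, 931 and 903 at day 10. Every obstructed sum lay below every healthy sum. The differences were -0.72 ± 0.27 at day 2 (edgeR adjusted p = 1.0) and -0.97 ± 0.30 at day 10 (adjusted p = 0.912), and neither passed. Of 31 vasoactive genes tested, 0 passed edgeR's test on members alone, with 4 at an unadjusted p under 0.05 at day 2 and 3 at day 10, while DESeq2 called 3 higher at day 2 and limma 1 higher at day 10; Ednrb and P2ry2 were above every healthy sum at day 2, and Agtr1a below. Of 26 fibrillar collagen and activation genes 0 passed by edgeR, with 1 at an unadjusted p under 0.05 at day 2 and 2 at day 10, and DESeq2 called 2 higher at day 10. There were 13 positive and 13 negative differences at day 2 and 8 and 18 at day 10, and Col12a1 alone had all 3 fitted day 10 sums above health (2.72, adjusted p = 0.776). The Col1a1 limit of the rule keeps wells with collagen RNA out of the members.

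Acta2 had opposite differences at day 10 in members and in the other mesenchyme wells. Its member sums were 14773, 14376, 13275 and 16784 CPM in health, 21274, 19153, 18481 and 14173 at day 2, and 24419, 15322, 31200 and 18616 at day 10. The other wells had 28668, 27819, 31952 and 26393 CPM in health, 21072, 21515, 26001 and 21941 at day 2, and 18187, 19281, 18131 and 13738 at day 10. Healthy members thus held less Acta2 than healthy other wells, and at day 10 3 of 4 numbers held more. On members alone the day 10 difference was 0.74 ± 0.18 (edgeR adjusted p = 0.776). In the joint fit Acta2 rose in members by 0.71 ± 0.14 (adjusted p = 0.0297) and fell in the other wells by 0.78 ± 0.13 on the log2 scale (adjusted p = 0.00763). The call in members was lost without number 1 (edgeR adjusted p = 0.155), number 2 (0.0858) or number 3 (0.292), and without the 7 members with little Rgs5 (0.0926). It was also lost with a marker sum of at least 150 CPM (0.286), without wells with endothelial RNA when Emcn was counted (0.444), without wells with tubule RNA (0.258), with at least 1000 CPM of Myh11 (0.14) and when sums of under 5 wells were kept (0.159).

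The difference between the classes was tested as an interaction of class and condition over 14386 genes. This used the joint fit, in which sums of both classes from the same presumed mouse were treated as separate. At day 2 edgeR called 0 (0.0%), with 821 (5.71%) at an unadjusted p under 0.05, and DESeq2 called 391 (2.72%). At day 10 edgeR called 9 (0.0626%), 5 higher in members (0.0348%) and 4 lower (0.0278%), with 1403 (9.75%) at an unadjusted p under 0.05, and DESeq2 called 817 (5.68%). Acta2 had the smallest adjusted p, with a difference in response of 1.50 ± 0.19 (adjusted p = 0.00216). The call for Acta2 was lost without number 1 (adjusted p = 0.107), without number 3 (0.0774), with a marker sum of at least 150 CPM (1.29, 0.0533), without wells with endothelial RNA when Emcn was counted (1.05, 0.0616), and when sums of under 5 wells were kept (1.29, 0.0688). Without the 7 members with low Rgs5 it held at 1.32 (adjusted p = 0.00684).

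**Figure D5:**
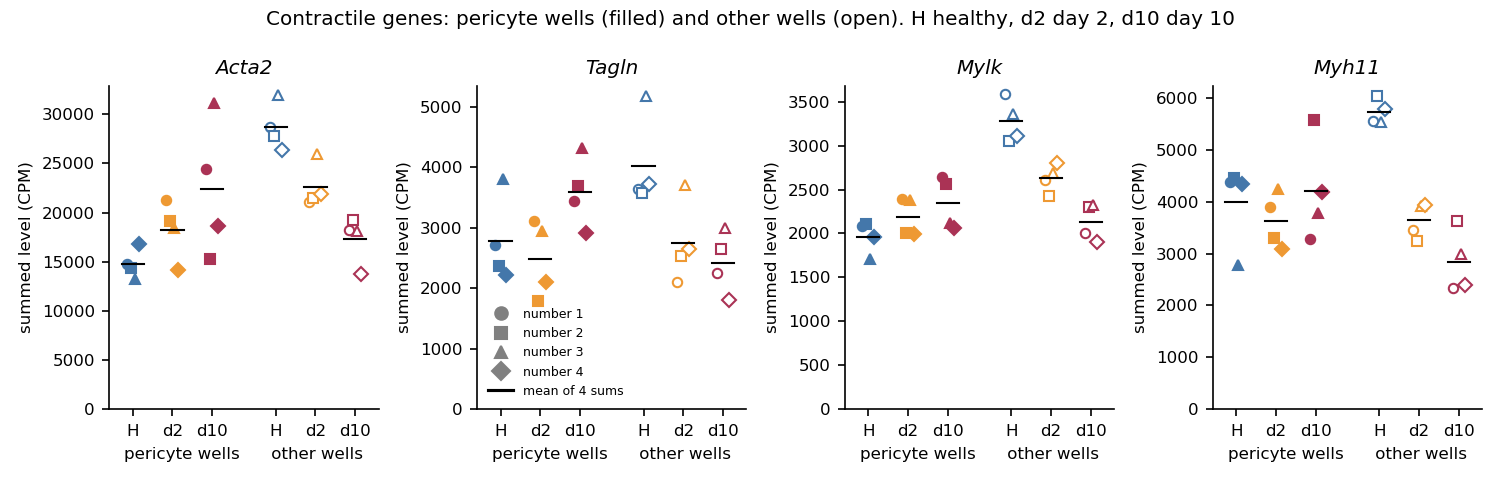
CPM of contractile genes in the sums of member wells and of other mesenchyme wells, by condition (H healthy, d2 day 2, d10 day 10), with 1 point per number and a bar at the mean of 4 sums. Healthy Acta2 points lie between 13275 and 16784 CPM in members and between 26393 and 31952 in the other wells, and at day 10 the member mean lies above that of the other wells.

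Other contractile genes had differences of the same sign without passing the test. Mylk, myosin light chain kinase, had an interaction at day 10 of 0.87 ± 0.17 (edgeR adjusted p = 0.0628), Tagln, transgelin, 1.11 ± 0.22 (0.0754) and Myh11 1.01 ± 0.24 (0.148). Of 23 contractile genes tested, 1 rose in members relative to the other wells and 21 had positive values, with a median of 0.88 against -0.31 over all genes; DESeq2 called 11 higher. In members alone, 21 genes were tested at day 10, with 0 called by edgeR, 4 at an unadjusted p under 0.05 and a median of 0.16 against -0.25; DESeq2 called 2 higher and limma 4 higher. In the other wells the joint fit called 5 of 23 lower and 22 of 23 were negative. Over all genes the joint fit called 14 in the other wells at day 2 (0.0973%), 13 higher (0.0904%) and 1 lower (0.00695%), and 22 at day 10 (0.153%), 9 higher (0.0626%) and 13 lower (0.0904%). Myh11 member sums, 4372, 4455, 2785 and 4337 CPM in health and 3276, 5577, 3786 and 4186 at day 10, overlapped, while those of the other wells went from 5555, 6047, 5537 and 5783 to 2335, 3623, 2983 and 2393.

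The other wells did not hold the same kinds of cell in each condition. The lower quartile of Acta2 over their wells was 15499 CPM in health, 2485 at day 2 and 23.1 at day 10, and their podocyte and parietal markers summed to medians of 1782, 3844 and 5209 CPM, against 500, 355 and 344 in members. With both classes held to wells with at least 1000 CPM of Myh11, an alternative chosen after seeing the data, the Acta2 interaction was 0.89 (edgeR adjusted p = 0.268) and no longer passed. Myh11 is itself a contractile gene and is tied to what was measured, so this limit is no separate check, and the part of the wells with little Acta2 in the interaction was not tested.

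The other 8 genes with an interaction at day 10 were 4 higher and 4 lower in members. Lbh, a transcription cofactor, had member sums of 350, 242, 361 and 332 CPM in health and 559, 234, 470 and 601 at day 10, against 505, 453, 431 and 485 and then 263, 245, 226 and 203 in the other wells (interaction 1.71 ± 0.32, edgeR adjusted p = 0.0473). Trpv2, a cation channel, had 89.8, 67.2, 127 and 97.3 CPM and then 114, 103, 216 and 229 in members, and 141, 93.0, 157 and 83.8 and then 49.7, 27.5, 29.2 and 27.3 in the other wells (2.76 ± 0.50, adjusted p = 0.0473). Gpr20 followed the same direction (2.58), as did Klhl21 (3.81), whose member sum for number 3 at day 10 was 953 CPM beside 186 and 320 in the other fitted sums. Anxa2, annexin A2, went the other way: member sums were 275, 214, 766 and 406 CPM in health and 166, 295, 232 and 182 at day 10, while the other wells went from 295, 236, 327 and 210 to 448, 446, 724 and 734.5 (-2.16 ± 0.39, adjusted p = 0.0473). Cyth3, Smyd5 and Polrmt were also lower in members. Polrmt was listed at 0 in every day 10 member sum and Smyd5 in 3 of 4, so their fitted values, listed further below, do not measure the size of a change.

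The promoter of Acta2 is shown because the gene had the smallest adjusted p of the interaction. The 250 bases before the start site listed by RefSeq (GRCm38.p6) lie at chr19:34255374-34255623 on the minus strand, overlap the listed span of the gene and hold 1 TGGGAA, in capitals, 27 bases before that start.
Acta2: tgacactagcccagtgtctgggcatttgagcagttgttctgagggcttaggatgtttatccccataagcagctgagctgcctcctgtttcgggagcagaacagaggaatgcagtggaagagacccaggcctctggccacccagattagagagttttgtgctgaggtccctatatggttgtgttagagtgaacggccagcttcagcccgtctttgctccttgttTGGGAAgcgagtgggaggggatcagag
Of the 23 contractile genes 19 had a promoter in the table, and 7 of these held TGGGAA on either strand against the 21.6% of all windows.

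RNA content was read from the added ERCC spike-in molecules, whose amount per well is taken as constant. Gene reads per ERCC read in member sums were 196, 208, 233 and 282 in health, 371, 381, 335 and 313 at day 2, and 323, 263, 513 and 394 at day 10. All 4 day 2 sums lay above all healthy sums, and 3 of 4 day 10 sums did. The log2 difference was 0.62 at day 2 (exact two-sided permutation test, p = 0.0286, the smallest that 4 against 4 allows, adjusted p = 0.0571, higher in 4 of 4 numbers) and 0.67 at day 10 (exact permutation p = 0.0571, adjusted p = 0.0571, higher in 4 of 4). Neither passed after adjustment over the 2 comparisons.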

How the data were processed

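The authors deposited raw read counts per gene and well for 6 Smart-seq2 plates of mouse kidney cells, with a layout of each well's condition, gate and number. Reads were aligned with STAR to mm10, per the submitters' processing notes, and the counter and annotation are not given in the sources used here. Smart-seq2 counts have no molecular identifiers, so amplified copies are counted. No doublet caller was run, because wells were sorted singly.

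Wells with at least 1000 genes and 20000 gene reads were kept, and CPM was computed over gene reads. Member and other wells were summed per condition and number, with at least 5 wells per sum for a fit. Tests used edgeR 4.0.16 (TMM, filterByExpr, quasi-likelihood, number as block) in R 4.3.3, with Benjamini-Hochberg adjustment over all genes. DESeq2 1.42.0, limma 3.58.1 and other limits on wells were alternatives; exact tests used scipy 1.17.1. Scripts were tested on simulated counts. The block rests on the plates that same-numbered conditions share. A number is not always a single plate: number 1 spans plates 1 and 2, and number 4 spans plates 5 and 6. Whether such plates hold cells of the same mice is not stated by the labels. Over 10 same-numbered pairs the deviations from group means correlated at -0.0151 to 0.0412, so the data do not show a pairing.

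Genes named had a mean level of 4 or more on the log2 CPM scale and were the 10 of largest change past the threshold per direction with 1 sign in every number or, where fewer than 5 passed, the 5 of smallest p, plus the 20 of largest ratio, list members and genes said to be chosen after their values were seen. The members and the gene lists were chosen with earlier results of these data known. Not every gene that meets this rule is reported here.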

Additional observations from a re-analysis of the deposited data

Results flagged for a closer look

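In groups of 4 sums, 6 of 96 had 1 sum far from the other 3 by Dixon's test, where chance gives about 1 in 20. Myh11 in healthy members was 2785 CPM for number 3, with the nearest sum at 4337. Spp1 in healthy members was 5257 CPM for number 3, with the nearest at 390, and 3 of the 4 members with Cdh16 RNA and little Rgs5 lie in that sum. Itih4 in healthy members was 17.8 CPM for number 2, with the nearest at 0.523, and at day 10 it was 1032 CPM for number 1, with the nearest at 240. Serpina3n, an acute-phase serpin, was 0.0937 CPM in 1 healthy sum and 0 in the other three, and at day 10 it was 132 CPM for number 1, with the nearest at 0.390.

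The response at day 10 differed between members and the other mesenchyme wells for 9 genes by the interaction test of edgeR, with adjusted p from 0.00216 to 0.0473. It was more positive in members for Acta2 (1.50 on the log2 scale), Klhl21 (3.81), Trpv2 (2.76), Gpr20 (2.58) and Lbh (1.71). It was more negative for Anxa2 (-2.16), Cyth3 (-3.31), Smyd5 (-11.30) and Polrmt (-12.59). The last pair are fitted values for genes listed at 0 in the day 10 member sums of the fit, depend on the prior count and are no bounds. Cyth3 at day 10 was 236 CPM in the 4-well sum that the fit left out, beside 15.2, 18.3 and 30.4 CPM in the fitted sums.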

How the results depend on the processing

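No called value changed direction under the alternatives run. Of 547 values of single genes under alternatives, 408 stayed on their side of the threshold, 49 passed it only there and 90 passed it only in the test as reported. With DESeq2 the counts of calls were 249 for day 2 against healthy, 387 for day 10 against healthy, 218 for day 10 against day 2, and 391 and 817 for the interactions at day 2 and day 10, against 0, 0, 0, 0 and 9 with edgeR; limma gave 19, 67 and 4 for the first 3. At day 2, 1 gene was called with at least 10 wells per sum, with a marker sum of at least 600 CPM, and without members with little Rgs5. At day 10, 1 was called without a filter on low counts, when sums of under 5 wells were kept, and without wells with endothelial RNA, Emcn counted, which also gave 1 between day 10 and day 2. The joint fit gave 21 and 39.
The day 10 interaction, 9 genes, gave 16 without a filter, 40 and 0 with marker sums of at least 600 and 150 CPM, 4 without endothelial RNA (Emcn counted), 0 with sums of under 5 wells kept, 2 without tubule RNA, 2 with Myh11 of at least 1000 CPM and 4 without members with little Rgs5; the last also gave 1 at day 2. Leaving out 1 number or plate gave 0 to 1 calls at day 2, 0 to 2 at day 10, 0 to 1 for the day 2 interaction and 0 to 19 for the day 10 interaction, where number 1 left 0, number 3 left 2 and number 4 left 19.
Without the replicate block, the counts were 0, 1 and 0 for the 3 comparisons and 0 and 4 for the interactions. With the number as a replicate block, the exact p of the ERCC ratio was 0.125 at both times. The causes of these moves were not tested. Sums of 7 to 29 wells and 3 to 4 sums per condition limit what could be called.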

Other observations

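Signalling genes not described above gave no edgeR call in the fits on members alone. Of 30 PDGF, Notch and angiopoietin signalling genes tested, 17 had positive and 13 negative differences at day 2 and 13 and 17 at day 10, with medians of 0.12 and -0.07 against -0.03 and -0.25 over all genes; 1 and 5 had an unadjusted p under 0.05, DESeq2 called 0 and 2, and limma 1 and 1. Tgfb3, a transforming growth factor, and S1pr3, a sphingosine receptor, had all 3 fitted day 10 sums above the healthy ones, as 2.44% of all genes did. Of 16 chemokine and interferon genes 0 passed by edgeR, with medians of -0.14 and -0.17, 2 at an unadjusted p under 0.05 at each time and 1 and 2 DESeq2 calls, and Ifitm3, an interferon-induced membrane protein gene, was above every healthy sum at day 2.

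Among 18 immediate early genes, which digestion of tissue can induce, 13 had positive differences at day 2 and 14 at day 10, with medians of 0.31 and 0.17, and 0 passed by edgeR, with 0 and 3 at an unadjusted p under 0.05 and 4 limma calls, all higher, at day 10. Of 12 mesangial genes tested, 9 had positive differences at day 10, with a median of 0.71 against -0.25 over all genes. There were 0 edgeR calls, 3 genes at an unadjusted p under 0.05 and 2 DESeq2 calls. Itga8, Ptn and Serpine2 had all 3 fitted day 10 sums above health, as 2.44% of all genes did. Agtr1a, on the same list, had all 3 below health, as 4.67% of all genes did.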
